A study of Mus musculus with 6 samples.

Results

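The miRNA repertoire of splenocytes from lupus-prone mice that received no estrogen was described from 2 placebo samples out of 6 samples in the series. They were chosen by their treatment label, Placebo control, and every probe named for a mouse miRNA was taken, 566 of 626 probes on the panel. The animals were female NZB/WF1 mice, a hybrid that spontaneously develops an autoimmune disease resembling human lupus. They carried an empty implant from 6 to 7 weeks of age for 9 weeks, so they were sham-implanted rather than wholly untouched, and no implant of this group held a hormone. Total RNA of splenocytes was counted with the nCounter mouse miRNA panel, in which each miRNA is ligated to a tag and counted through a coloured barcode without amplification. The labels do not say whether the samples came from separate mice or from pools, and the spread between them may be technical. No other strain was measured here, so nothing below can be called particular to lupus-prone mice.

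Mature miRNAs are short RNAs cut from hairpin precursors and loaded into Argonaute proteins, where bases 2 to 8, the seed, select the messenger RNAs to be repressed. miRNAs with the same seed form a family with overlapping targets, and either arm of a hairpin (5p or 3p) can give the mature product. The spleen holds mostly B and T lymphocytes, with myeloid cells, red cell precursors, vessels and stroma around them, and each of these is known for a few characteristic miRNAs.

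The sequences that carry most of the matched counts are given first, to show which of the abundant miRNAs share a seed. miR-150-5p and miR-142-3p are among the names without a match. They are mature sequences from RefSeq on build GRCm38.p6, written 5′ to 3′ with the seed in capitals. Of the 85 probes that stood above background in both samples, 59 matched the sequence table. These held 50.7% and 53.0% of all mouse miRNA counts in placebo samples 1 and 2. Probe names without an arm were tied to the arm that the older nomenclature denotes by that name. The first set is the let-7 family, the largest by members and by counts.
let-7g-5p: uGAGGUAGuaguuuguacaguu
let-7a-5p: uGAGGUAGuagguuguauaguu
let-7d-5p: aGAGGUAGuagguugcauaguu
let-7i-5p: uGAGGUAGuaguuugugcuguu
let-7f-5p: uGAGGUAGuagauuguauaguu
let-7c-5p: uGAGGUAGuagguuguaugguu
let-7b-5p: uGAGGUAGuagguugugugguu
let-7e-5p: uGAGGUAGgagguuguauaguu
miR-98-5p: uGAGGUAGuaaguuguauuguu
The second set is the miR-15/16 family, which ranked next by counts.
miR-16-5p: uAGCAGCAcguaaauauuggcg
miR-15b-5p: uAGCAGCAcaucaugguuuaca
miR-15a-5p: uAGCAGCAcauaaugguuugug
miR-322-5p: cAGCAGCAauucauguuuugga
The third set is the miR-29 family, which differs from miR-15/16 within the seed.
miR-29a-3p: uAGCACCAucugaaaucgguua
miR-29b-3p: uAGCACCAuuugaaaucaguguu
miR-29c-3p: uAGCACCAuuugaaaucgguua
The last set holds abundant or cell-type-linked miRNAs whose seed no other matched probe shared.
miR-342-3p: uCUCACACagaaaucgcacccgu
miR-146a-5p: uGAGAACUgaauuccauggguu
miR-21a-5p: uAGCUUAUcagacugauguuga
miR-25-3p: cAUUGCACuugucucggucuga
miR-181a-5p: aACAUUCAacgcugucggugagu
miR-223-3p: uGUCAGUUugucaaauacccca
miR-155-5p: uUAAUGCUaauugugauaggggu
miR-451a: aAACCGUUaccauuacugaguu

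The deposited values are normalized counts, and they summed to 151249 and 139137 over the mouse miRNA probes of placebo samples 1 and 2. The raw depth behind them is unknown, so no counting interval is given. Background was set from the 8 negative control probes of the panel, which match no target. Mouse miRNA probes had a median of 17 and 14 normalized counts, against negative control means of 27.3 ± 19.3 and 19.8 ± 12.0 (SD, n = 8 probes) in samples 1 and 2. The typical probe of the panel thus read no higher than the probes without a target. A probe was called above background when it exceeded the mean + 2 SD of the negative controls of its own sample, a floor of 65.8 in sample 1 and 43.8 in sample 2, in both samples. Against 8 negative controls, a one-sided exact rank test of a single probe cannot give a p below 0.111, so the floor is a rule and not a test.

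By this rule 85 of 566 mouse miRNA probes, 15.0%, stood above background in both samples. All 85 probes above the floor in sample 1 were also above it in sample 2, where a further 22 passed, so the higher floor of sample 1 alone set the count. The remaining 459 probes were above it in neither sample. Of 33 probes for viral miRNAs, 0 passed the same rule, which allows a share of up to 9.09%. The highest viral value was 30 in sample 1 and 25 in sample 2. The probes just inside the floor were miR-144 (73 and 45 normalized counts in samples 1 and 2), miR-322 (66 and 63), miR-24 (66 and 62), miR-125a-5p (66 and 63) and miR-200c (66 and 76). Those just outside were miR-200b (65 and 46), miR-26a (61 and 89), miR-652 (62 and 40), miR-467b (60 and 59) and miR-101b (60 and 63).

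**Figure D1:**
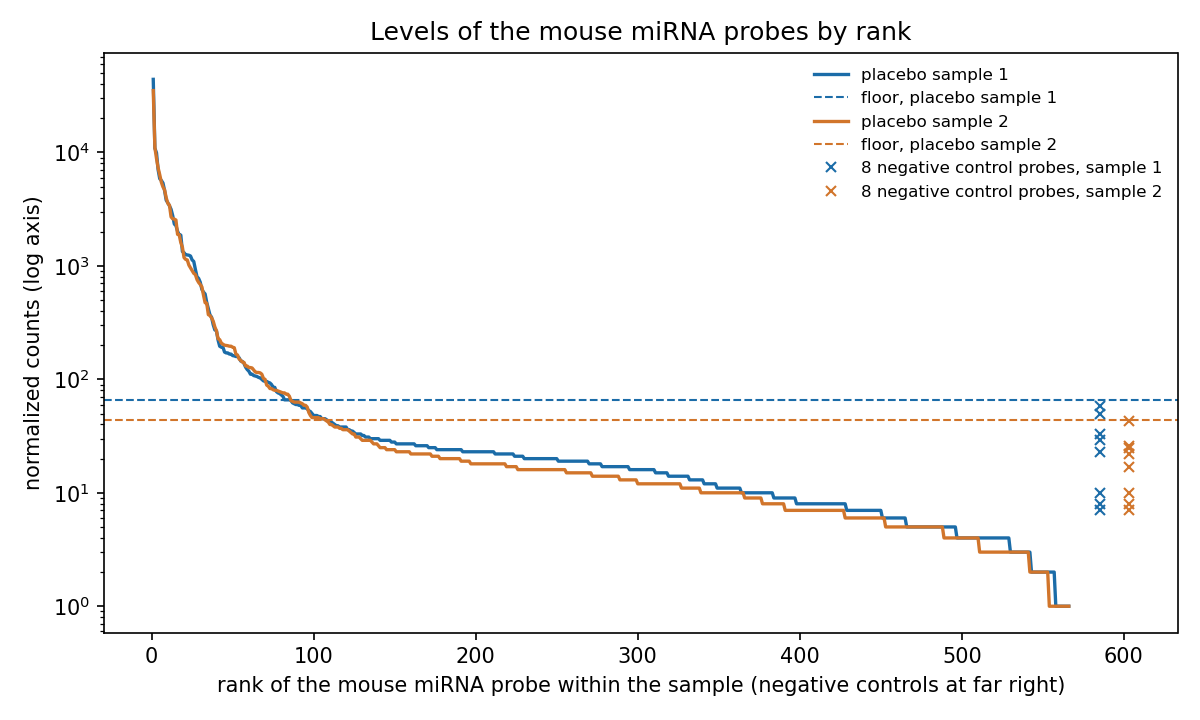
Normalized counts (log axis) of the 566 mouse miRNA probes against their rank within each placebo sample, as a line per sample, with dashed lines at the floors of 65.8 (sample 1) and 43.8 (sample 2) and crosses for the 8 negative control probes. Both lines fall steeply over the first ranks and then run flat through the range of the negative controls.

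The repertoire was concentrated in few miRNAs. miR-150, the leading miRNA of mature B and T cells and a repressor of the transcription factor Myb, stood at 44123 and 35124 normalized counts in samples 1 and 2. That was 29.2% and 25.2% of all mouse miRNA counts, and 4.05 and 3.18 times the next miRNA. 5 probes in sample 1 and 6 in sample 2 were enough to hold 50% of the counts, and 35 and 37 to hold 90%. The 10 most abundant miRNAs by mean share held 66.7% and 65.7%, a mean of 66.2% ± 0.753 (SD, n = 2), and the 30 most abundant held 88.0% ± 0.500 (SD, n = 2). The 481 probes that missed the rule still carried 5.19% and 5.02% of the counts between them, an amount that includes assay background. Probes differ in ligation and hybridisation efficiency, which the files do not calibrate, so an order of probes is an order of counts and only roughly of molecules.

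miR-16, which restrains cell cycle and survival genes such as Bcl2, ranked second in both samples with 10893 and 11046 normalized counts. let-7g, of the let-7 family that accompanies differentiation, followed at 9936 and 8863. These and miR-150 held the first 3 ranks in the same order in both samples. miR-142-3p, a miRNA made throughout the blood lineages, came next with 7049 and 7317. The ranks 5 and 6 belonged to miR-1944 (5875 and 6368) and miR-720 (5666 and 5465), a name later assigned in human to a fragment of a transfer RNA. Then followed miR-15b at 5380 and 4968, and miR-342-3p, a lymphocyte miRNA encoded within the Evl gene, at 4616 and 3979. miR-29a had 3792 and 4679 normalized counts, so it ranked ninth in sample 1 and eighth in sample 2, trading places with miR-342-3p. miR-146a, which dampens NF-kB signalling through Traf6 and Irak1, completed the first 10 with 3604 and 3560. The same 10 probes led both samples, as did 18 of the first 20 and 28 of the first 30.

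**Figure D2:**
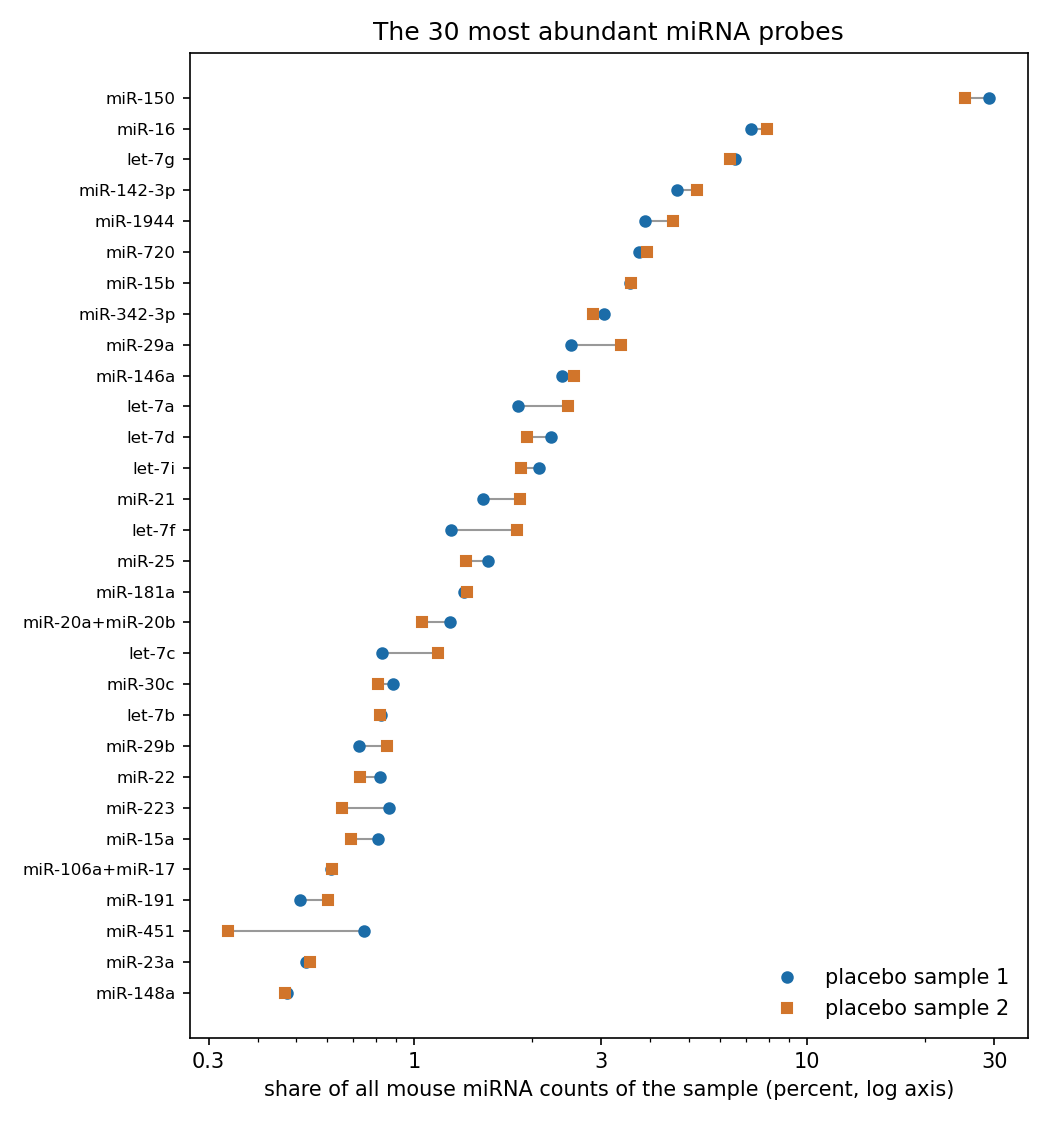
Share of all mouse miRNA counts (percent, log axis) of the 30 most abundant probes in placebo sample 1 (circles) and placebo sample 2 (squares), with a line joining both values of a probe. miR-150 stands alone at 29.2% and 25.2%, and miR-451 shows the widest gap.

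Among ranks 11 to 30, let-7a, let-7d, let-7i, let-7f, let-7c and let-7b took 6 places. miR-21, an abundant miRNA that rises with immune activation, had 2266 and 2586 normalized counts in samples 1 and 2. miR-25, known with its seed family as a regulator of Bim, had 2339 and 1884. miR-181a, which tunes T cell receptor signalling and is high in developing lymphocytes, had 2022 and 1897. Of these, miR-21 was the higher in sample 2, and miR-25 and miR-181a in sample 1. The combined probe for miR-20a and miR-20b stood at 1870 and 1459, and that for miR-106a and miR-17 at 932 and 860; both belong to families that promote proliferation. miR-30c had 1340 and 1129, miR-29b 1095 and 1185, and miR-22 1242 and 1016. miR-223, the miRNA of neutrophils and other myeloid cells, read 1308 and 911. miR-15a (1223 and 962), miR-191 (776 and 839), miR-23a (803 and 758) and miR-148a (718 and 654), which targets the methyltransferase Dnmt1, were also in this range, and miR-23b (192 and 196) and miR-148b (108 and 116) passed the floor at lower values. miR-451, a red cell miRNA, ranked 25 in sample 1 and 34 in sample 2, with 1128 and 468.

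Grouped by seed, the 59 matched probes fell into 38 seeds, of which 8 were shared by more than 1 probe. Those 8 seeds took in 29 probes and 34.8% and 37.3% of all mouse miRNA counts in samples 1 and 2. miR-23b, miR-30b and miR-30d passed the floor but had no match, so these figures for shared seeds may be too low. The let-7 seed GAGGUAG led with 23936 and 23219 normalized counts summed over 9 probes, a share of 16.3% ± 0.610 (SD, n = 2). Seed AGCAGCA of miR-15/16 followed with 17562 and 17039 over 4 probes, 11.9% ± 0.449. The miR-29 seed AGCACCA had 5364 and 6417 over 3 probes, 4.08% ± 0.753. Seed AAAGUGC of the miR-17 family, shared by the probes for miR-17, miR-20, miR-93 and miR-106, had 3046 and 2657 over 4 probes, 1.96% ± 0.0737. miR-150 as a single probe exceeded each of these sums.

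All 9 let-7 probes were above the floor in both samples, against 15.0% of all mouse probes, but at very unequal levels. let-7g alone gave the 9936 and 8863 normalized counts stated above, 72.0 and 62.9 times miR-98, the lowest member, at 138 and 141. In between, let-7a had 2776 and 3434, let-7d 3384 and 2704, and let-7i 3154 and 2601. let-7a was below let-7d in sample 1 and above it in sample 2, so these neighbours have no settled order. let-7f had 1877 and 2539, let-7c 1254 and 1606, and let-7b 1250 and 1141. let-7e, whose sequence differs from let-7a at 1 position, had 167 and 190. let-7a differs likewise from let-7c and from let-7f at 1 position each, and let-7b from let-7c at 1, so signal that one member's RNA gives on another's probe was not tested here.

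In the miR-15/16 family 4 of 6 probes passed. This count and those for miR-29 and miR-30 below stand beside 15.0% of all mouse probes. miR-16 was 2.02 and 2.22 times miR-15b and 8.91 and 11.5 times miR-15a in samples 1 and 2. miR-322, encoded apart from them on the X chromosome, lay at the floor with 66 and 63 normalized counts, and miR-195 and miR-497 lay below it, at no more than 14. The mature miR-16 is made from a pair of loci, at chr14:61631936-61631957 on the minus strand within the long non-coding gene Dleu2, beside miR-15a, and at chr3:69009918-69009939 on the plus strand within Smc4, beside miR-15b at chr3:69009775-69009796. The probe reads both copies together. The 3 miR-29 probes all passed, with miR-29a 3.46 and 3.95 times miR-29b, and miR-29b 2.30 and 2.14 times miR-29c, whose readings were 477 and 553. miR-29a and miR-29c differ at 1 position. All 5 miR-30 probes passed as well, led by miR-30c and miR-30d (588 and 686), while miR-30b (171 and 268), miR-30e (103 and 127) and miR-30a (97 and 115) were lower.

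Other families had probes on both sides of the floor, or none above it. miR-181a read 2022 and 1897, against 43 and 44 for miR-181c and 29 and 24 for the probe of miR-181b and miR-181d, neither of which passed in both samples. miR-146a read 3604 and 3560, against 38 and 46 for miR-146b, which missed the floor of sample 1. miR-26b (621 and 715) stood far above miR-26a (61 and 89), which missed the floor of sample 1. miR-103 (159 and 200) passed and miR-107 (38 and 65) did not, and miR-130b (96 and 102) was the 1 of 4 probes of its family that passed. miR-10a (159 and 164) passed and miR-10b (11 and 8) did not. The miR-221/222, miR-99/100, miR-34 and miR-196 families had 0 of 2, 0 of 3, 0 of 4 and 0 of 2 probes above the floor. Since 15.0% of all mouse probes passed, a count of 0 in families this small says little about them.

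**Figure D3:**
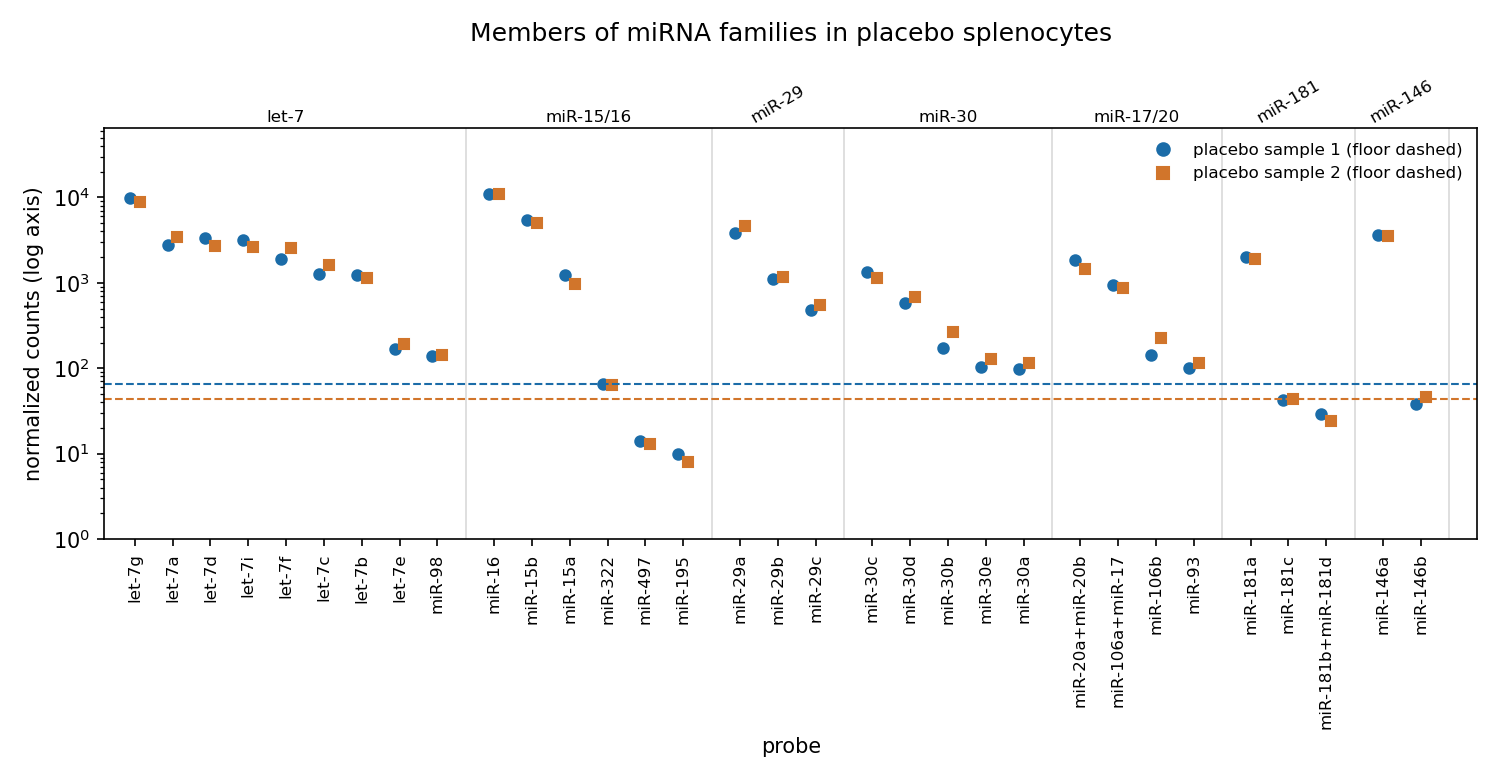
Normalized counts (log axis) of each probe of 7 miRNA families in placebo sample 1 (circles) and placebo sample 2 (squares), with the floor of each sample dashed. The let-7, miR-29 and miR-30 probes all lie above both floors, whereas miR-181 and miR-146 each have 1 probe above both.

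Neighbouring miRNAs, which often share a primary transcript, were read at levels from near equal to far apart. Among matched probes, 34 mature miRNAs had another within 10 kb on the same strand in RefSeq, in 16 groups. These counts include a group made up only of both arms of the miR-423 hairpin, which are not neighbouring miRNAs. In the group within Mcm7, a DNA replication gene, miR-25 (chr5:138165332-138165353, minus strand) was 23.4 and 16.5 times miR-93 (100 and 114 normalized counts) and 16.2 and 8.41 times miR-106b (144 and 224). The miR-17-92 cluster lies on chromosome 14, but the joint probe for miR-20a and miR-20b and the miR-19b probe also read copies on the X chromosome, so their values are not those of 1 transcript. The joint probe had 1870 and 1459, against 167 and 192 for miR-19a and 104 and 131 for miR-19b. The miR-92a and miR-18a probes of that cluster stayed below the floor, at 20 and 31 and at 16 and 12. miR-23a was 12.2 times miR-24 in both samples, with miR-24 at 66 and 62, and miR-27a from the same cluster on chromosome 8 read 566 and 474. miR-24 has a further copy on chromosome 13 and lay just inside the floor, so its readings include background. Other neighbours lay closer together: miR-191 was 2.20 and 2.41 times miR-425 (353 and 348), and let-7a was 0.820 and 1.27 times let-7d. let-7c and let-7b, neighbours on chromosome 15, had the similar values given above; let-7c has a further copy on chromosome 16. miR-451 (chr11:78073186-78073207, plus strand) was 15.5 and 10.4 times miR-144, which lies beside it. The miR-144 readings too were just inside the floor. The cause of the gaps was not tested.

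For 65 hairpins the panel held probes to both the 5p and the 3p arm. Both arms passed for 3 of these, 1 arm for 7 (5p for 5 and 3p for 2) and neither for 55. As 15.0% of all mouse probes passed, the 55 say little about arm use. Of the 3 with both arms above the floor, miR-142 was the most one-sided. It had 7049 and 7317 normalized counts on its 3p arm and 93 and 100 on its 5p arm. The 3p probe gave 98.7% of the summed counts of the pair in both samples, background included. Each arm has its own probe, so the balance of arms is a balance of counts and only roughly of molecules. miR-151 favoured its 5p arm with 222 and 209, against 76 and 64 on the 3p arm. miR-423 gave similar readings on both arms, 90 and 121 on 5p and 96 and 147 on 3p, and the log2 difference of 5p minus 3p was -0.09 in sample 1 and -0.28 in sample 2. miR-342 had 4616 and 3979 on 3p against 48 and 43 on 5p, and the 5p arm missed both floors. The remaining hairpins with 1 arm above the floor favoured 5p for miR-139 (107 and 115, against 5 and 6), miR-532 (155 and 142, against 16 and 20), miR-340 (196 and 228, against 41 and 46) and miR-125b (75 and 71, against 19 and 12). miR-126, made by endothelium, favoured 3p (78 and 80, against 6 and 4). miR-125a had no settled arm: 5p read 66 and 63 and 3p read 52 and 74, so the order turned between samples. The count of 3 pairs with both arms above the floor was 2 with mean + 3 SD and 5 for sample 2 alone. It was 6 with a floor set from the viral probes, a setting chosen after seeing the data.

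The mature sequences shared features that the choice of members did not use. Of 61 matched mature sequences 41, or 67.2%, began with U, against 687 of 1679 mature mouse names in the same table, or 40.9%. Weighted by counts, U-starting miRNAs made up 81.5% and 83.8% of the matched counts in samples 1 and 2. Here all counts of the joint probe for miR-20a and miR-20b were credited to miR-20a, which begins with U, whereas miR-20b begins with C. The table holds many minor arms that the panel does not probe, so this sets the abundant miRNAs beside all annotated ones. A first base of U is known to favour loading into Argonaute. The length was 22 bases for 34 of the 61, and lengths ran from 20 to 24.

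The label of splenocytes was checked against marker miRNAs. The top ranks of miR-150, miR-16 and let-7g are no part of this check, since they were proposed as markers with their values known, and the lists too were written with earlier results known. The counts stand beside 15.0% of all mouse probes above the floor. Of 4 lymphoid probes 3 passed, miR-150, miR-342-3p and miR-181a, and the 4 summed to 33.6% and 29.5% of mouse miRNA counts in samples 1 and 2. miR-150, no part of this check, made up 86.9% and 85.6% of that sum. Of the others, miR-342-3p held 3.05% and 2.86% of mouse miRNA counts and miR-181a 1.34% and 1.36%. All 3 myeloid probes passed, with 1.77% and 1.54%, and all 3 erythroid probes, with 0.921% and 0.428%. In the myeloid sum miR-223 made up 48.9% and 42.5%, and miR-23a and miR-27a the rest. Both probes of miR-142 passed. Markers of vessels and stroma were near the floor: miR-126-3p had 78 and 80 normalized counts, the smooth muscle miRNA miR-145 had 85 and 74, and miR-125b-5p had 75 and 71, while miR-143 had 17 and 31. That is 1 of 2 endothelial and 2 of 6 stromal probes. In bulk RNA, fewer cells of a type and less RNA per cell cannot be told apart.

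Markers of tissues outside the spleen lay below the floor with 1 exception. Of 7 muscle probes, 4 pancreas probes, 3 neural probes and the liver miRNA miR-122, 0 passed, against 15.0% of all mouse probes. Lists this short say nothing about a tissue at that share. miR-122 read 2 and 3, the muscle probes at most 21 and 20, and the pancreas probes at most 16 in either sample. Of 7 epithelial probes 1 passed, a share close to that background, miR-200c with 66 and 76, and miR-200b reached 65 and 46. The other 5 epithelial probes read 40 or less.

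**Figure D4:**
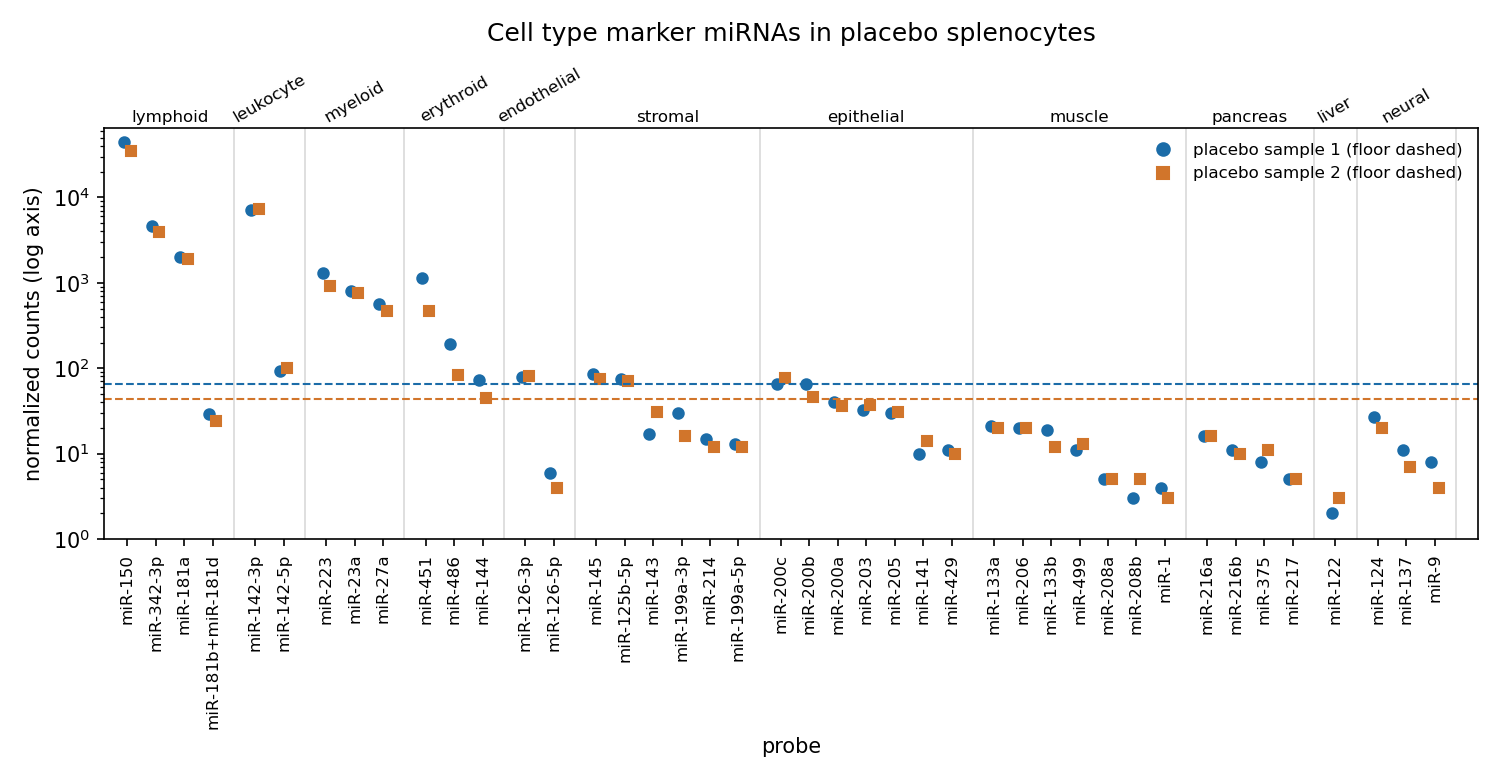
Normalized counts (log axis) of marker miRNAs of 11 cell types or tissues in placebo sample 1 (circles) and placebo sample 2 (squares), with the floor of each sample dashed. Lymphoid, leukocyte, myeloid and erythroid markers lie above the floors with the exception of the miR-181b and miR-181d probe, and muscle, pancreas, liver and neural probes all lie below.

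A list of 10 miRNAs linked by earlier studies to lupus was read in the same way, as levels alone. It had 4 members above the floor, miR-146a, miR-21, miR-148a and miR-155, against a background of 15.0%. miR-155, which rises in activated lymphocytes, was modest at 111 and 204 normalized counts in samples 1 and 2. The members of the miR-182 cluster, known from activated T cells of lupus-prone mice, did not pass: miR-182 read 5 and 6, miR-96 read 38 and 22, and miR-183 read 9 and 10. miR-31 (26 and 24), miR-127 (5 and 6) and miR-379 (9 and 6) also lay under the floor. Of 61 probes for the imprinted Dlk1-Dio3 cluster 0 passed, and their highest readings were 30 in sample 1 and 80 in sample 2. The value of 80 came from miR-376a, which read 26 in sample 1. Probes were also grouped by the names miR-297, miR-466, miR-467 and miR-669, many of which belong to a large cluster in an intron of Sfmbt2, and 3 of 33 passed. They were miR-467f (122 and 127), which RefSeq places on chromosome 11 and so apart from Sfmbt2, the joint probe miR-466a-3p+miR-466b-3-3p (118 and 87) and miR-669a (85 and 83). Many members of these groups are close in sequence, and signal that a relative's RNA gives on a probe was not tested here.

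On the deposited scale, which appears set by the abundant miRNAs, the samples agreed closely for abundant miRNAs and less so near background. Over the 85 probes above the floor, the median absolute log2 difference was 0.21, with 44 probes higher in sample 1 and 41 higher in sample 2. For the same 85 probes it was 0.35 on the positive control scale. What the scaling contributes to the contrast was not tested. The ranks of these probes had a Spearman correlation of 0.963 across miRNAs, which are not independent and share both libraries. For the 459 probes above the floor in neither sample the median absolute log2 difference was 0.39, and these probes were shifted towards sample 1 by a median of 0.22, as were the negative controls, by 0.28. Of the 85, 11 differed by more than 0.5 and 2 by more than 1 log2 unit on the deposited scale.

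Those 2 were the red cell miRNAs miR-451 and miR-486. miR-451, cut by Argonaute2 without Dicer in red cell precursors, differed by 1.27 log2 units, sample 1 minus sample 2. miR-486, which promotes red cell growth and survival, had 192 and 83 normalized counts in samples 1 and 2, a difference of 1.20. miR-144, the neighbour of miR-451, had 73 and 45, a difference of 0.69 in the same direction. The erythroid list summed to 1393 in sample 1 and 596 in sample 2. All 3 differences kept their sign when the samples were rescaled to equal positive controls, at 0.95, 0.88 and 0.37 for miR-451, miR-486 and miR-144. The lymphoid miR-150 was higher in sample 1 by 0.33 as deposited and by 0.01 on the positive control scale. In the opposite direction, miR-155 differed by -0.87 (111 and 204) as deposited and by -1.19 on the positive control scale. On that scale its difference was larger in size than those of miR-451 and miR-486, so which probes differ most depends on the scaling. miR-1224 differed by 0.71, with 273 and 167. With 1 sample on each side none of these differences can be tested.

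**Figure D5:**
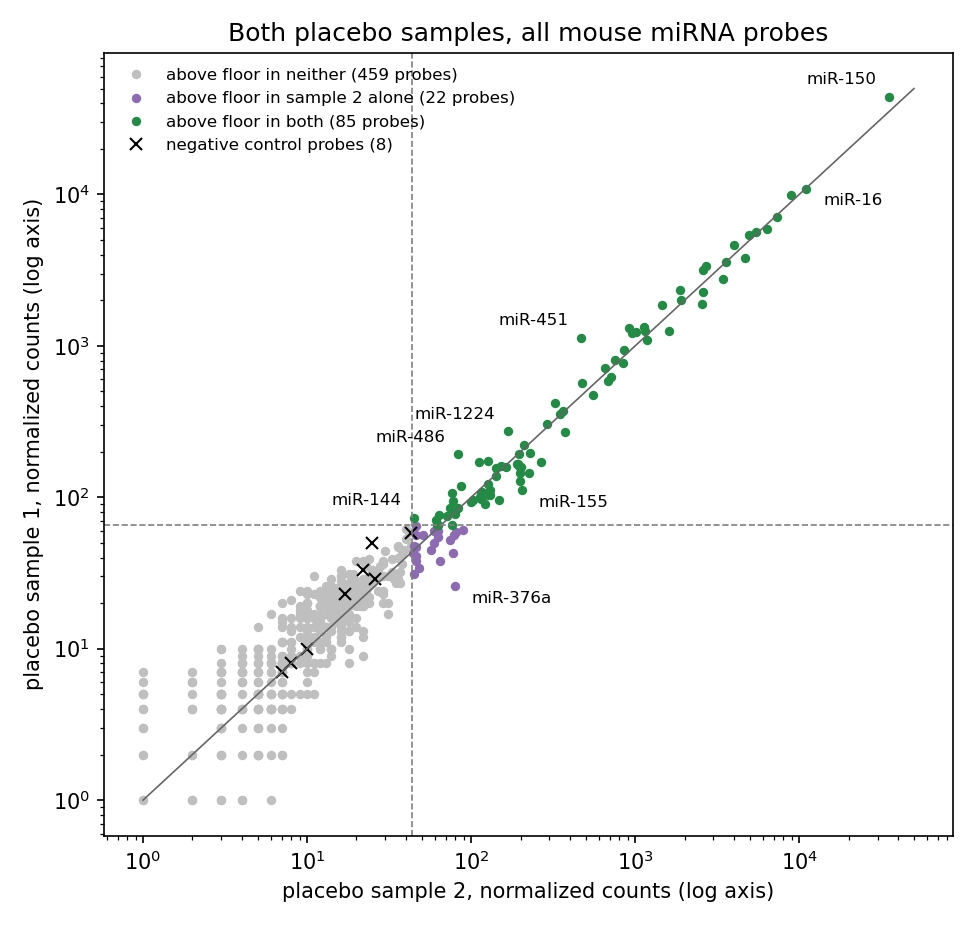
Normalized counts of all 566 mouse miRNA probes in placebo sample 1 (vertical, log axis) against placebo sample 2 (horizontal, log axis), with the floors dashed, the line of equality solid and the 8 negative control probes as crosses. The 85 probes above both floors follow the line, with miR-451 and miR-486 above it and miR-155 below it, and 22 probes pass in sample 2 alone.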

How the data were processed

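Total RNA of splenocytes was run on version 1.5 of the manufacturer's mouse miRNA panel, per the labels. The authors deposited a whole-number score per probe and sample, a normalized barcode count; the steps of normalization, background correction and rounding are not given by any source used here. Positive controls summed to 28670 and 22961 in placebo samples 1 and 2, while the 100 highest miRNAs had geometric means of 295.0 and 297.8, so the scale appears set by the abundant miRNAs. The raw depth is unknown. No count model was fitted and no test was made, since the description concerns 2 samples of 1 group. The other 4 samples were not analysed here.

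Shares are percent of the summed mouse miRNA probes and do not depend on scaling. Log2 differences used a pseudocount of 1. The labels list 578 mouse probes, and 566 names starting with the mouse prefix were used. Sequences and positions came from RefSeq (GRCm38.p6) by name; host genes are by span, with no intron or exon call. Arms of names without one, and the lists, came from background knowledge. Named were the 30 highest probes, list members above the floor, arm pairs with an arm above it, the 5 largest differences between samples, and the 5 probes on either side of the floor; miR-10b, miR-195 and other members below it were added for contrast. Members and lists were chosen with earlier results of these data known. Alternatives covered the floor, background subtraction, the denominator, scaling, pseudocount, filter and leaving out a sample. The floor rule was run on simulated data only to check the code. No simulated level was set close to the floor, so this says nothing about probes there. Python 3.11.15, pandas 2.3.3 and scipy 1.17.1 were used.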

Additional observations from a re-analysis of the deposited data

How the results depend on the processing

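Under the alternatives fixed for these values, 39 of 46 recomputed values stayed within the spread of the samples or within 1.5 times. For the shares, the outcome of leaving out a sample was fixed in advance. Each sample always lies within the SD around the mean of the pair, so those values carry no weight in this count. The number of miRNAs above the floor was 85 as reported, 74 with mean + 3 SD, 90 over the highest negative control, 96 without that control, 94 for the mean of both samples and 107 for at least 1 sample. Viral probes stayed at 0 in each of these settings. With mean + 3 SD this was fixed in advance, since a higher floor cannot add probes, so that value carries no weight either. A floor from the viral probes, chosen after seeing the data, gave 122. Arm pairs with both arms above the floor numbered 3, 2 with mean + 3 SD, 3 to 5 when a sample was left out, and 6 with the viral floor. The 10 most abundant miRNAs held 70.0% after subtracting the negative control mean and 69.8% of the counts above the floor, and let-7 held 17.1% in both settings, since less background stays in the denominator. The median absolute log2 difference was 0.35 on the positive control scale and 0.34 with no filter, which adds probes near background. Unknown raw depth and the 8 unequal negative controls limit every statement near the floor. No paired analysis was possible because 1 group was described.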

Other observations

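A lower floor was also set from the viral probes. The viral probes gave floors of 34.1 and 23.0 normalized counts in samples 1 and 2, and 37 further mouse probes exceeded these in both samples. The negative controls NEG_B and NEG_C exceeded them in both samples too, so this range holds probes without a target, and these 37 are values and not detections. They ran from 35 to 65 in sample 1 and from 23 to 89 in sample 2. Among them were miR-132, a miRNA induced by cell activation, at 42 and 38, miR-7a at 44 and 30, miR-107 at 38 and 65, miR-361 at 43 and 77, and miR-99a at 47 and 36. These names were chosen after their values were seen.

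The negative controls were unequal among themselves. NEG_C read 58 and 43 and NEG_B read 50 and 25 in samples 1 and 2, whereas NEG_A read 7 in both. Of the 566 mouse probes, 116 and 139 read below the lowest negative control. The 3 non-mammalian spike-in probes read 12 or less, and the lowest positive control read 40 and 29, below the floor of each sample.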
